A study of Rattus norvegicus with 113 samples.

Results

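Motile cilia and ependymal genes are described here in the rat hippocampus and cortex after traumatic brain injury (TBI). The list holds 41 rat genes, and 32 of them were named on the arrays, among 16691 genes named on either array design. A gene counted as a member when the RefSeq transcript assigned to a probe belonged to one of the listed symbols, and it was read from the probe with the highest mean signal. The list was drawn up because several of its genes were higher in the cortex 6 months after TBI, so the members were chosen by their signals on the TBI and sham arrays of the cortex at 6 months, and those values are given below as a description, with no test. The 9 listed genes not named on the arrays were Rfx3, Dnah5, Dnah9, Dnah11, Ccdc39, Ccdc113, Hydin, Spag17 and Rsph4a.

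Total RNA from adult male Sprague-Dawley rats was hybridised to 113 Agilent 1-colour arrays in 29 groups. TBI rats received a parasagittal fluid-percussion injury, which the sample labels call moderate and the study's methods call severe. Sham rats had the same anesthesia and surgery without the injury, and naive rats were neither anesthetised nor handled. Tissue was collected at post-injury intervals of 24 hr, 2 weeks, 3 months, 6 months and 12 months, from the dissected hippocampus and from a piece of cortex near the injury site. According to the study's methods both tissues were taken from the same rats, and the labels do not say which arrays share a rat. Groups held 4 biological replicates, except that the hippocampus at 24 hr had 2 sham and 3 TBI arrays and no naive group among the arrays used here. Naive and sham rats served as controls at the same interval. Levels below are log2 signals relative to the array's median probe, so that 0 is the median probe and 1 unit is a 2-fold change. A gene was called when its adjusted p from limma was under 0.05, adjusted over all probes tested in that comparison.

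Motile cilia beat and move fluid over an epithelium. In the brain they stand in tufts on ependymal cells, which line the ventricles and move cerebrospinal fluid, and the choroid plexus, the epithelium that secretes this fluid, is continuous with the ependyma. Their core, the axoneme, is built of microtubule doublets around a central pair and carries dynein motor arms, radial spokes and nexin links, and the transcription factors FOXJ1 and RFX switch on the genes for these parts. Neurons and some glia carry a single immotile primary cilium, which lacks dynein arms. Levels in bulk tissue cannot tell fewer cells of a type from less RNA per cell.

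RFX factors bind the X-box, an imperfect inverted repeat, and matches are shown for members whose values are described below. The RefSeq table on build GRCr8 gave promoters (250 bases before to 50 after the gene's start) for 33 of the 41 listed genes. The X-box pattern searched, on both strands, was GTNNCC, then any 3 bases, then GNNAC. It was found in 11 of these 33 promoters (33.3%) and in 4.6% of all 27457 promoters. Each line gives 30 bases on the gene's strand, 5′ to 3′, around the match, and capitals mark the bases that fit the pattern's fixed letters on either strand. The sites shown lie at chr9:91883640-91883669 on the plus strand for Daw1, chr6:100874695-100874724 plus for Ppp1r36, chr9:22337669-22337698 plus for Rsph9, chr10:57479139-57479168 minus for Tekt1, chr11:81235276-81235305 plus for Iqcg, chr8:117098966-117098995 plus for Zmynd10 and chr10:14992263-14992292 plus for Tekt4.
Daw1: gtttgtccGTttCCatGGctACgaagccca
Ppp1r36: gcgaggctGTatCCcaGGtgACgcggccac
Rsph9: ggctcaggGTctCCatGGagACggcttcta
Tekt1: tgcgtccgGTtgCCataGtgACcgcagttt
Iqcg: cgcgtcacGTtgCCataGctACccattagt
Zmynd10: gctccctcGTttCCgtGGcgACgaggactc
Tekt4: tatacaatGTtcCtgaGGcaACcaggagcc

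The other 4 listed genes with a match were Rfx2, Spag6, Hydin and Dnah9. The shorter letters GTTGCC, which overlap the left arm of the longer pattern, stood in 15 of the 33 promoters (45.5%) and in 12.2% of all. GTAAACA, a forkhead core, stood in 3 of 33 (9.09%) and in 3.76% of all promoters. Among 83 other motile cilium genes with a promoter, 28 (33.7%) held the X-box pattern. These are letter matches in a fixed window, and no binding was measured.

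Every group lay on 1 slide, so that slide and group cannot be told apart wherever the groups compared lay on different slides. For TBI and sham this held in the hippocampus at 24 hr and 6 months and, in the cortex, at 6 months, 2 weeks and 24 hr, and it held for every comparison of the tissues. Between 41.2% and 93.0% of probes were well above background on an array (median 56.0%), and the cortex sham array 3 at 2 weeks, at 93.0%, stood apart from the other 112, which reached at most 72.4%. The lowest correlation between replicates was 0.51, in the same group, and the highest was 0.99. The mean of the choroid plexus markers, relative to the naive arrays, was over 1 in 8 arrays: cortex naive 3 months replicates 1 to 3, cortex TBI 6 months replicate 2, hippocampus naive and sham 12 months replicate 3, and hippocampus sham 3 months replicates 2 and 3. For the comparisons of these groups, the members' counts and medians are also given without those arrays.

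Of the 32 members, 24 were well above background on over 50% of the 60 cortex arrays, and 28 on over 50% of the 36 hippocampus arrays of the larger design (96 arrays in all, 11 members above background on every one). The central pair genes Spag6 and Spag16, the ruler gene Ccdc40 and the adenylate kinase Ak7 were seldom detected in cortex, on 2, 2, 4 and 3 arrays. Dnai2, an outer dynein arm intermediate chain, was detected on 14 of 60 cortex and 19 of 36 hippocampus arrays. The remaining members were spread over the parts of the axoneme, with Foxj1 and Rfx2 as the transcription factors.

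Foxj1, the master regulator of motile ciliogenesis, was well above background on all 36 hippocampus arrays and 59 of 60 cortex arrays of the larger design. Its level in the hippocampus ranged from 2.21 to 5.24 (median 3.62, 36 arrays), and in the cortex from −1.45 to 3.94 (median 1.97, 60 arrays). The cortex level was above the lowest hippocampus level on 7 of 20 naive, 6 of 20 sham and 14 of 20 TBI arrays. The TBI count includes 3 of the arrays at 6 months, which chose the list.

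In the naive cortex Foxj1 read 3.60, 1.05, 2.14 and 1.61 at 24 hr and 1.64, 3.11, 2.94 and −0.15 at 2 weeks. At 3 months the naive values were 3.83, 3.85, 3.89 and −1.45, 3 high arrays and 1 very low one. Naive cortex at 6 months gave 1.08, 0.79, 1.37 and 1.43, and at 12 months 0.74, 1.49, 2.40 and 1.11. Rats that had received no surgery therefore covered almost the whole cortex range of this gene. The 3 high arrays at 3 months were those with choroid plexus means of 2.28 to 2.41, and the part of that tissue in these levels was not tested.

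In the hippocampus Foxj1 read 3.71, 3.31, 3.58 and 3.19 in naive rats at 2 weeks, 3.57, 2.82, 2.98 and 3.55 at 6 months, and 3.85, 4.07, 5.24 and 3.95 at 12 months. The hippocampus TBI arrays read 3.28, 3.55, 4.23 and 3.71 at 2 weeks, 4.02, 3.62, 3.67 and 3.48 at 6 months, and 3.39, 3.14, 3.68 and 3.08 at 12 months. Sham and TBI values overlapped at each of these intervals, and 1 array, naive 12 months replicate 3, stood above the rest.

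**Figure D1:**
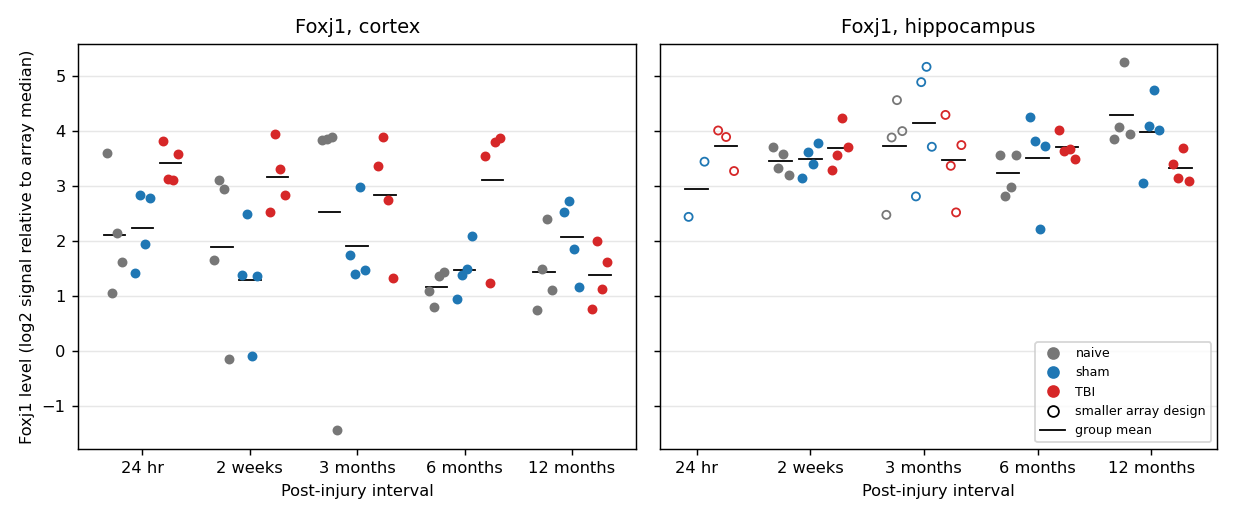
Foxj1 level on each array (log2 signal relative to the array median, y axis) by interval and injury in cortex and hippocampus. Each point is 1 array, open where it is of the smaller design, and lines are group means. Cortex arrays spread from −1.45 to 3.94, while hippocampus arrays of the larger design stay between 2.21 and 5.24.

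The members differed between the tissues in rats that had no surgery. Naive hippocampus and naive cortex were compared at 2 weeks, 6 months and 12 months, where both were on the same array design, and these groups took no part in choosing the list. At 2 weeks 6 of 27 members tested were called, all higher in hippocampus, against 5.01% of all probes called in either direction. At 6 months 12 of 20 were called, all higher in hippocampus (16.6% of all probes called), and at 12 months 17 of 21, again all higher (37.4%). The members' median hippocampus minus cortex difference was 0.72, 0.88 and 1.32 at the 3 intervals, beside 0.44, −0.07 and 0.13 over all probes tested. Of the called members 5, 9 and 13 were well above background on all arrays of both groups. The count at 2 weeks was 2 without cortex naive replicate 1 and 11 without cortex naive replicate 2 or replicate 3. Each tissue lay on its own slides, so tissue and slide cannot be told apart. The members' median stayed positive under every scaling tried, between 0.26 and 1.32.

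Calml4, a calmodulin-like protein that also stands in the choroid plexus list, had the largest difference. In naive rats at 6 months it read 5.38, 4.43, 4.76 and 4.93 in hippocampus and 0.47, −0.17, −0.16 and 0.72 in cortex. The groups were far apart, and hippocampus was higher by 4.66 ± 0.29 (SE; 25.4-fold, adjusted p = 2.29e-53 by limma, n = 4 against 4). At 2 weeks the difference was 3.59 (12.0-fold, adjusted p = 7.83e-15 by limma) and at 12 months 4.71 (26.2-fold, adjusted p = 0.000393 by limma). limma's prior degrees of freedom were 365 at 2 weeks and infinite at 6 months, which makes the p-values of those intervals very small. The standard errors of those 2 intervals come almost wholly from a spread shared by all probes. They do not measure the spread of a gene's own arrays. A prior robust to outlying probes left the counts of called members at 6, 12 and 17. Choroid plexus markers went both ways between the tissues. At 6 months Folr1 and Ttr were called higher in hippocampus, by 4.25 and 3.50, and Igf2, Igfbp2, Aqp1, Kcnj13 and Col8a1 were called lower, of 13 tested (median −0.53). At 12 months Folr1, Otx2, Ttr and Car12 were called higher, by 5.01, 4.34, 3.95 and 1.44, and the list's median was 0.50. At 2 weeks Folr1 was called higher, by 2.25, and Col8a1 lower, with a median of 0.40. The part of choroid plexus tissue in the members' tissue differences was not tested.

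Mlf1, whose product is abundant in multiciliated cells, was called at all 3 intervals. At 6 months it read 3.01, 2.09, 2.55 and 2.77 in naive hippocampus and −1.86, −1.39, −1.91 and −2.53 in naive cortex. It was not well above background on any of these cortex arrays, so it entered the comparison through the hippocampus arrays alone, and hippocampus was at least 14.3-fold higher (adjusted p = 2.13e-50 by limma). At 2 weeks the cortex values −0.54, 1.80, 1.98 and −0.96 ran into the hippocampus values of 2.64, 2.22, 2.28 and 1.93. The difference there was 1.70 ± 0.41 (adjusted p = 0.0018 by limma), but 1.19 with an adjusted p of 0.126 by limma without cortex naive replicate 4 and 1.33 with 0.11 without replicate 1. With the 3 other scalings its adjusted p lay between 0.0933 and 0.169 by limma.

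Among the dynein genes, Dnah1, an inner arm heavy chain, read 2.39, 1.83, 1.85 and 2.13 in hippocampus and 0.21, −0.82, −0.94 and −2.45 in cortex at 6 months. It was well above background on 3 of these 4 cortex arrays, so it entered the comparison through the hippocampus arrays alone. The groups did not overlap, and hippocampus was 8.27-fold higher (log2 3.05 ± 0.29, adjusted p = 6.89e-23 by limma). Daw1, a factor for dynein arm transport, read 0.81, −0.33, 0.44 and 0.09 in hippocampus at 2 weeks and −3.20, −0.24, −0.37 and −2.57 in cortex. Its groups overlapped, with a difference of 1.85 ± 0.41 (adjusted p = 0.000458 by limma) that was 1.52 with an adjusted p of 0.105 by limma without cortex naive replicate 4 and 1.31 with 0.118 without replicate 1. With the 3 other scalings its adjusted p lay between 0.115 and 0.132 by limma. Daw1 was tested only at this interval, and 2 of its 4 cortex arrays were well above background. The standard errors of Dnah1 and Daw1 given here rest on the spread shared by all probes.

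Rsph9, a radial spoke head protein, had the smallest p at 12 months. It read 4.86, 4.97, 5.33 and 5.02 in hippocampus and 3.44, 3.64, 3.41 and 3.33 in cortex, with no overlap, a 3.01-fold difference (log2 1.59 ± 0.13, adjusted p = 2.6e-05 by limma). Tekt4, a tektin of the doublet microtubules, read 1.93, 1.87, 2.50 and 1.88 in hippocampus at 12 months and −0.06, 0.14, 0.34 and 0.01 in cortex. Its groups were likewise apart (3.83-fold, adjusted p = 3.15e-05 by limma). Iqcg, a nexin link protein, read 1.33, 0.84, 1.86 and 1.099 in hippocampus at 12 months and −2.48, −1.55, −1.49 and −2.39 in cortex, where no array was well above background, so that it too entered through hippocampus alone. Hippocampus was at least 4.63-fold higher (adjusted p = 4.05e-05 by limma). Without hippocampus naive replicate 3, the array with a choroid plexus mean of 3.14, the differences of Rsph9, Tekt4 and Iqcg were 1.49, 1.79 and 3.07, those of Foxj1 and Calml4 were 2.52 and 4.24, and 15 of 22 members were called, with a median of 1.33.

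Foxj1 was higher in naive hippocampus than in naive cortex by 1.57 (adjusted p = 0.0052), 2.06 (adjusted p = 1.44e-10) and 2.84 (adjusted p = 0.000564 by limma) at 2 weeks, 6 months and 12 months. Its values did not overlap between the tissues at any of these intervals. A dimmer second Foxj1 probe gave 0.62, −0.13 and 0.61, so the probes of this gene disagree in size, and at 6 months in direction. Rsph9, Tekt1, Mlf1 and Calml4 were, with Foxj1, the 5 members called at all 3 intervals, 7 members were called at 2 and 6 at 1. The 9 members called at none were Zmynd10, Spef2, Stk36, Cfap43, Enkur, Ribc2, Ak8, Ppp1r36 and Meig1. Of these, Enkur, a microtubule inner protein, read lower in hippocampus, by −0.41, −0.68 and −0.23.

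**Figure D2:**
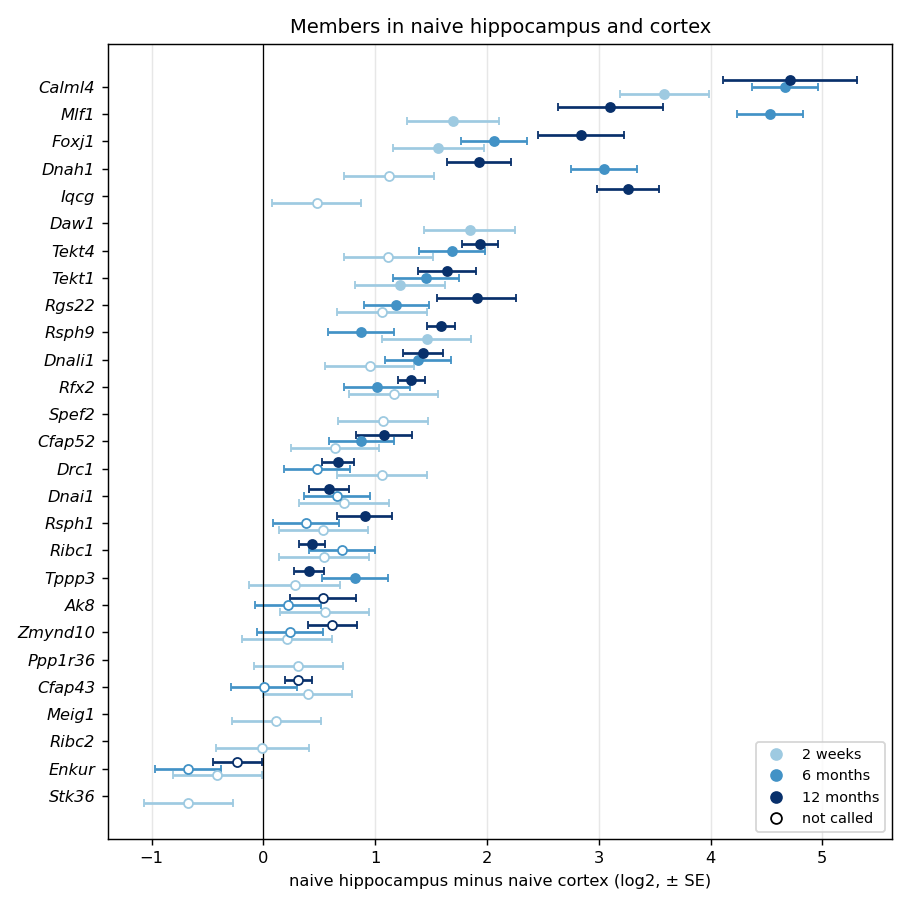
Naive hippocampus minus naive cortex (log2, x axis) for each member tested at 2 weeks, 6 months and 12 months, with bars of 1 standard error from limma, 4 arrays in each group and open circles where limma did not call the member. At 2 weeks and 6 months the bars rest on a spread shared by all probes and do not show a gene's own spread. Calml4 has the largest differences, 3.59, 4.66 and 4.71, and Enkur lies below 0 at all 3 intervals.

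Other motile cilium genes, a list of axonemal genes outside the members, were also mostly higher in hippocampus. At 2 weeks 9 of 52 tested were called higher and 0 lower, at 6 months 12 of 41 higher and 3 lower, and at 12 months 30 of 46 higher and 3 lower. Their medians were 0.62, 0.35 and 0.79. Primary cilium and intraflagellar transport genes had medians of 0.49, −0.09 and 0.13, close to those of all probes tested, with 4 called in all, each at 12 months. Markers of ependymal cells outside the axoneme went both ways, with 3 of 11 called higher and 5 lower at 6 months. Meningeal and fibroblast markers were lower in hippocampus, with medians of −0.97, −3.28 and −2.11, and the part of such differences in tissue makeup in the members' levels was not tested. Markers of hippocampal identity were higher in hippocampus, with medians of 1.18, 0.56 and 1.07, whereas the cortex identity list went both ways, with 4 called lower and 2 higher of 9 at 6 months.

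The members' mean, over 26 members detected widely enough and relative to the naive arrays, ordered the groups by tissue. The 9 hippocampus groups of the larger design had means from 0.29 (TBI 12 months) to 0.78 (naive 12 months), and the 15 cortex groups from −0.83 (sham 2 weeks) to 0.18 (TBI 6 months). No cortex group mean reached a hippocampus group mean, but single arrays did: cortex TBI 6 months ranged from −0.35 to 0.50 and cortex naive 3 months from −0.65 to 0.48, against 0.02 to 0.54 in hippocampus TBI at 12 months. The ranges of all 23 pairs of neighbouring groups in this order overlapped, and in 21 the difference was under the SD of both groups. The exceptions were hippocampus naive 2 weeks against TBI 12 months (0.17, with SDs of 0.08 and 0.22) and cortex TBI 12 months against sham 6 months (0.07, with SDs of 0.28 and 0.06). The within-group SD had a median of 0.32 in cortex and 0.24 in hippocampus.

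The cortex at 6 months, which chose the list, is described first among the injury comparisons. The members' mean was 0.30, −0.35, 0.50 and 0.28 on the 4 TBI arrays, −0.78, −0.79, −0.75 and −0.66 on the sham arrays and −0.58, −0.70, −0.72 and −1.07 on the naive arrays. Every TBI array thus lay above every sham and naive array. Of 26 members tested 25 had a higher mean in TBI, with a median difference of 0.66 beside 0.03 over all probes. These arrays chose the list, so nothing is read from the call counts, which were 6 of 26 members and 0.0805% of all probes (20 of 24854). Of those 6, 4 were well above background on every TBI array and not on every sham array.

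Mlf1 showed the largest difference between TBI and sham. It read 1.73, 2.48, 2.16 and 1.49 after TBI and −2.87, −2.14, −1.33 and −0.34 in sham, where it was not well above background on any array. All TBI arrays were above all sham arrays, by at least 7.5-fold between the means, and a second Mlf1 probe differed by 2.14. Rgs22, a regulator of G-protein signalling, read 1.38, 0.84, 1.51 and 0.69 after TBI and −0.36, −1.44, −1.67 and −2.27 in sham, a 5.84-fold difference (log2 2.55 ± 0.36, n = 4 against 4). It was well above background on only 1 of the 4 sham arrays, which limits the size of this difference. Daw1 read −0.70, −0.50, −0.29 and −0.61 after TBI and −2.84, −2.89, −3.50 and −2.20 in sham, none of them well above background, which gives a difference of at least 1.46-fold. These 3 genes separated TBI from sham completely.

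Calml4 read 2.44, 2.83, 2.09 and 2.95 after TBI and 0.74, 1.11, 0.92 and 0.94 in sham (3.14-fold, log2 1.65 ± 0.23). Ppp1r36, a regulatory subunit of protein phosphatase 1, read 0.66, 1.09, 0.76 and 1.18 after TBI and −0.33, −0.72, −0.49 and 0.02 in sham (2.47-fold). It was well above background on 2 of the sham arrays. Ribc1, a microtubule inner protein, read 2.51, 2.37, 2.56 and 2.70 after TBI and 1.83, 1.75, 1.82 and 2.08 in sham (1.58-fold). None of these 3 overlapped between the groups. Ribc1 lies outside the 8 largest differences and was named after its values were seen.

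Foxj1 read 3.54, 1.23, 3.79 and 3.86 after TBI and 0.95, 1.37, 1.496 and 2.08 in sham. Replicates 1, 3 and 4 stood well above sham and replicate 2 lay among the sham arrays, so that the 3.10-fold difference (log2 1.63 ± 0.49) averaged unlike arrays. The second Foxj1 probe differed by 0.13. Dnah1 read 1.46, −0.31, 2.85 and 1.03 after TBI and 0.01, −1.32, −0.46 and −2.15 in sham, again with replicate 2 inside the sham range. It was well above background on 2 of the sham arrays. Spef2, a central pair protein, read −0.47, −1.10, 0.08 and −0.40 after TBI and −0.64, −1.17, −2.51 and −2.17 in sham, where no array was well above background, so that TBI was at least 1.43-fold higher.

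TBI replicate 2 was the lowest of the 4 TBI arrays for 19 of the 26 members tested, and it lay above every sham array for 8 members. It was not the lowest for Daw1, Mlf1, Rgs22, Calml4, Ppp1r36, Ribc2 and Meig1. Without it Foxj1 differed by 2.26. Of the 26 tested members 7 were higher than sham without overlap, as were 4.31% of all probes, in the contrast that chose them. Over all 32 members, 7 were above both sham and naive on every TBI array: Dnai2, Daw1, Ribc1, Mlf1, Rgs22, Calml4 and Ppp1r36.

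By role, the 6 tested tektins and microtubule inner proteins differed by 0.15 to 0.92 (median 0.71), the 2 inner dynein arm genes by 0.96 and 2.24, and the 2 radial spoke genes by 0.26 and 0.27. The 6 other genes of ciliated cells ranged from 0.15 (Tppp3) to 3.63 (Mlf1). Cfap43, an axonemal protein, was the only tested member with a lower mean in TBI, by −0.09. A second, dimmer Cfap43 probe was higher in TBI by 0.57 without overlap, so the probes of this gene disagree in direction.

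The size of these differences moved with the background correction. With normexp correction, which raises low signals, Mlf1 differed by 1.59, Rgs22 by 1.15, Dnah1 by 0.98, Ppp1r36 by 0.56, Daw1 by 0.49 and Spef2 by 0.20.

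**Figure D3:**
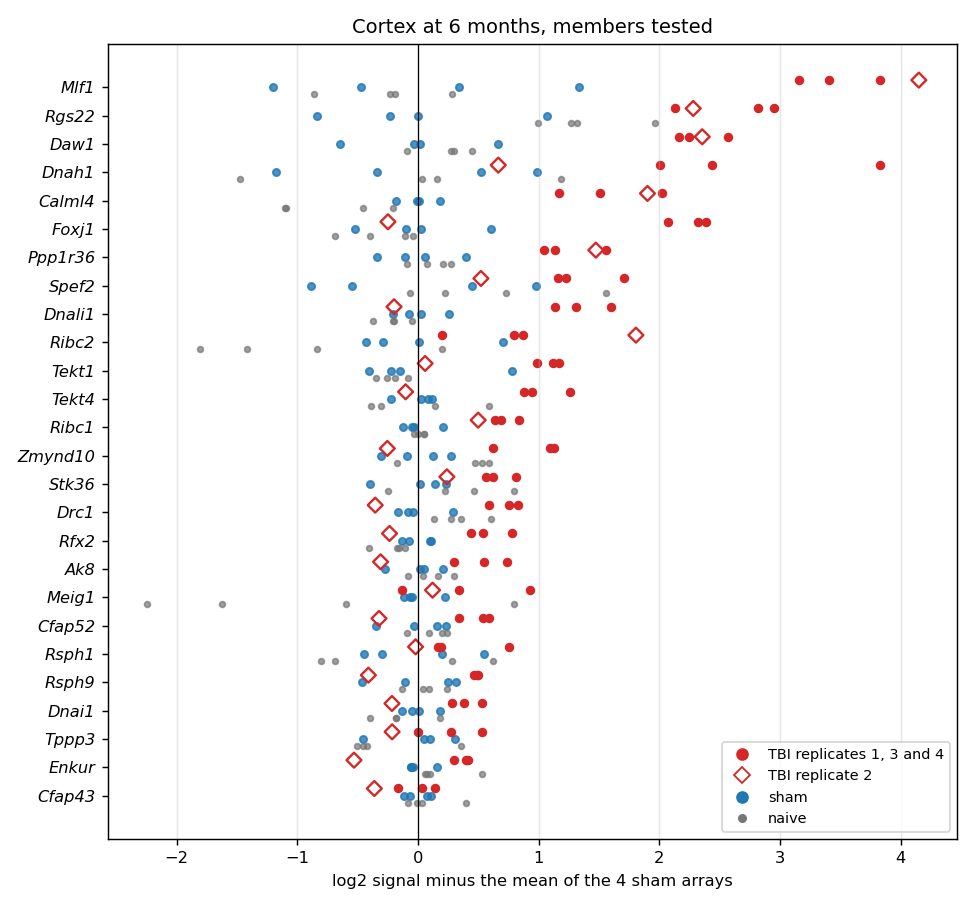
Log2 signal of each tested member on each cortex array at 6 months minus the mean of its 4 sham arrays (x axis), with naive, sham and TBI arrays as separate points and TBI replicate 2 as an open diamond. Mlf1, Rgs22, Daw1, Calml4 and Ppp1r36 separate TBI from sham, whereas the diamond of Foxj1 lies among the sham arrays.

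Markers of the choroid plexus were on average also higher after TBI in these cortex arrays. Among the TBI arrays their mean was highest on replicate 2, where the members' mean was lowest. The mean of the choroid plexus markers was 0.43, 1.72, 0.55 and 0.53 on the TBI arrays against −0.47 to −0.02 on the sham arrays and −0.68 to −0.06 on the naive arrays. Of 27 markers, 1 of which is the member Calml4, 22 had a higher mean in TBI than in sham. Calml4 was among the 4 that did not overlap. With members left out, 17 markers were tested, with a median difference of 0.20 and 1 called by limma. Of these 14 had a higher mean in TBI, and Igfbp2, Ace and Cab39l differed by −0.24, −0.24 and −0.10. Ttr, transthyretin, the most abundant choroid plexus transcript, read 9.70, 10.15, 7.29 and 6.81 after TBI and 2.44, 0.10, 6.02 and 4.28 in sham. Folr1, a folate receptor of the choroid plexus, read 2.16, 0.97, 1.70 and 1.69 after TBI and −2.93, −2.83, −2.43 and −2.38 in sham. Sostdc1 read 3.51, 3.10, 1.13 and 0.69 after TBI and −2.92, −3.10, −0.45 and −1.86 in sham. These 3 markers were higher on every TBI array than on every sham array.

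Otx2, a transcription factor of the choroid plexus, read 0.87, 6.997, −0.57 and −1.89 after TBI and 2.51, −3.08, −2.17 and −2.27 in sham. Replicate 2 was the highest array for Otx2 and Ttr and the lowest for most members. The markers did not share 1 order, since Folr1 was lowest on replicate 2 and Sostdc1 was highest on replicate 1. Of the 27 markers 7 (Cldn1, Cldn2, Clic6, Folr1, Kl, Lmx1a and Slc4a5) were not well above background on any sham array. Without replicate 2 the median difference of the members was 0.84. The part of choroid plexus tissue in the members' levels was not tested.

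Of 48 other motile cilium genes tested in the cortex at 6 months, 44 had a higher mean in TBI, with a median of 0.37, and 0 were called by limma. Primary cilium genes had a median of 0.11 and 0 of 34 called, ependymal markers outside the axoneme 0.01 and 0 of 9, and subventricular zone and neuroblast markers −0.01 and 0 of 10. Microglia and macrophage markers were higher in 15 of 15 (median 0.35), blood markers in 5 of 5 (median 0.29) and astrocyte markers in 12 of 15 (median 0.18), none of them called. The striatum list had a median of 0.01 and the meninges and fibroblast list −0.28.

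**Figure D4:**
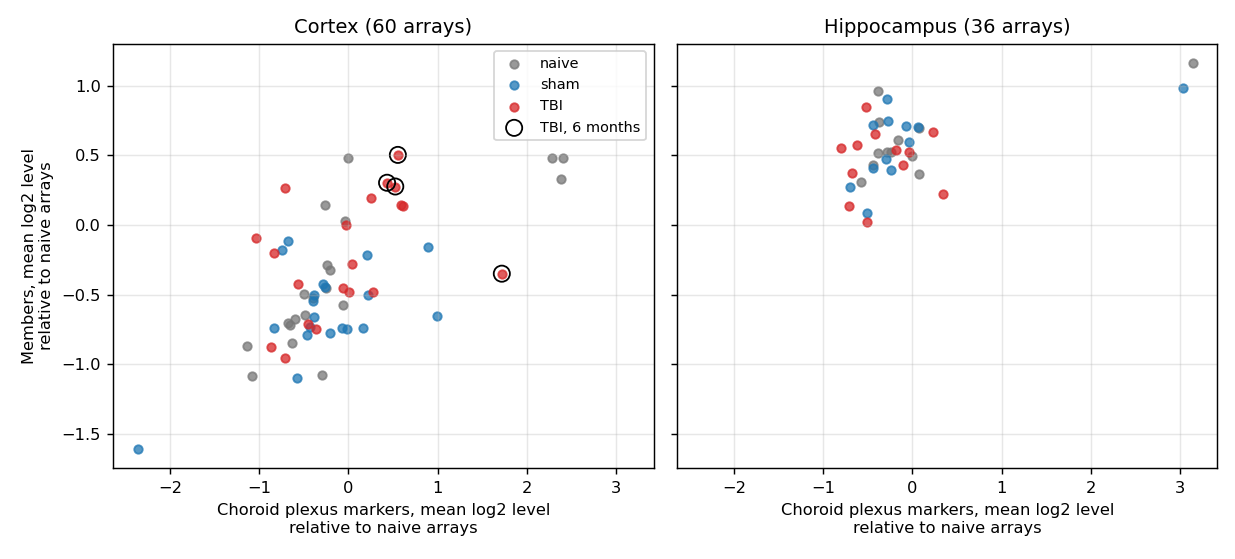
Members' mean (y axis) against the mean of the choroid plexus markers (x axis) for each array, both in log2 relative to the naive arrays, in separate panels for the tissues, with injury by colour and cortex TBI at 6 months circled. Hippocampus arrays lie between 0.02 and 1.16 on the y axis, and cortex TBI 6 months replicate 2 lies at 1.72 on the x axis.

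At the other intervals no member was called between TBI and sham. In the cortex at 24 hr, 0 of 24 members passed (0.217% of all probes), with 5 at an unadjusted p under 0.05, all higher in TBI, beside 20.8% of all probes at that p in either direction, and a median of 0.27 beside 0.12. Ppp1r36, named after its values were seen, had the smallest p. It read 0.69, 0.63, 0.09 and 0.87 after TBI and −0.87, −0.76, −0.29 and −0.13 in sham, without overlap, and TBI was higher by 1.08 ± 0.20 (adjusted p = 0.0518 by limma). Foxj1 read 3.82, 3.12, 3.11 and 3.58 after TBI and 1.42, 2.83, 1.94 and 2.78 in sham. All 4 TBI arrays were above all sham arrays, a 2.24-fold difference that did not pass (adjusted p = 0.192 by limma). The second Foxj1 probe differed by 0.10, with overlap (adjusted p = 0.771 by limma). Ribc1, also named afterwards, was the third member without overlap (0.66, adjusted p = 0.121 by limma), and 11% of all probes were higher without overlap. Without TBI replicate 3, 1 member was called. The choroid plexus list had a median of 0.01 in the same comparison, with 0 of 16 called.

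In the cortex at 2 weeks, 0 of 20 members passed (0.00848% of all probes), with 2 at an unadjusted p under 0.05 (4.05% of all probes), Rgs22 and Foxj1. Foxj1 read 2.52, 3.94, 3.31 and 2.84 after TBI and 1.38, 2.48, −0.10 and 1.36 in sham. The groups did not overlap, and the 3.66-fold difference was not called (adjusted p = 0.502 by limma). The second Foxj1 probe differed by 0.60, also without overlap (adjusted p = 0.502 by limma). Rgs22 read 0.18, 0.70, 0.58 and 0.53 after TBI and −2.04, −1.37, −0.66 and −1.67 in sham, a difference of 1.93 ± 0.56 (adjusted p = 0.443 by limma). The members' median of 0.82 was below that of all probes, 0.95, and other scalings moved both, to −0.52 and −0.39 at the lowest. Sham replicate 3, the array that stands apart, lay in this comparison. Without it alone 1 member was called, and without it and naive replicate 4 the medians were 0.21 and 0.01 and 1 of 20 members was called. With all arrays 4 members were higher without overlap, and so were 14.4% of all probes.

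In the cortex at 3 months 0 of 18 members were called (0% of all probes) and 0 had an unadjusted p under 0.05 by limma, although 17 of 18 had a higher mean in TBI, with a median of 0.38 beside 0.03. Foxj1 read 3.36, 3.89, 2.74 and 1.33 after TBI and 1.73, 1.40, 2.99 and 1.47 in sham, with overlap. By 12 months the direction in the cortex was the other way. There 0 of 21 members were called by limma and 0 had an unadjusted p under 0.05 (0% of all probes called), and 17 of 21 were lower in TBI, with a median of −0.20 beside −0.06. Foxj1 then read 0.77, 2.00, 1.13 and 1.62 after TBI and 2.53, 2.73, 1.85 and 1.16 in sham.

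The hippocampus arrays at 6 months took no part in choosing the list, although by the methods they came from the same rats as the cortex arrays that did. None of 25 members was called (0.0134% of all probes), 1 had an unadjusted p under 0.05 (2.87% of all probes), and the median was −0.02 beside 0.03. Mlf1 averaged 2.51 ± 0.47 after TBI and 2.43 ± 1.06 in sham (SD, n = 4 each), and Calml4 averaged 4.68 ± 0.35 and 4.75 ± 0.45. Rgs22 averaged 1.25 ± 0.47 after TBI and 0.98 ± 1.07 in sham, and Daw1 0.26 ± 0.54 and 0.41 ± 1.07. None of these 4 separated the groups. The exception was Ppp1r36, named after its values were seen, at 1.06, 0.73, 0.81 and 1.02 after TBI and −0.66, 0.34, −0.29 and 0.15 in sham. It was higher by 1.02 ± 0.23 without overlap (7.54% of all probes were higher in this way), with an unadjusted p of 0.000235 and an adjusted p of 0.404 by limma.

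In the hippocampus at 12 months all 26 members tested had a lower mean in TBI than in sham, the only 1 of the 22 comparisons in which every tested member lay on the same side. The median was −0.34 beside −0.05 over all probes, 6 members had an unadjusted p under 0.05 (14.5% of all probes) and 0 were called by limma (0% of all probes called). Mlf1 read 1.62, 1.27, 2.45 and 1.44 after TBI and 1.93, 2.96, 3.04 and 2.92 in sham, with 1 overlapping array on each side (−1.02 ± 0.32, adjusted p = 0.258 by limma). Calml4 read 4.49, 4.19, 4.44 and 4.71 after TBI and 4.78, 5.10, 6.51 and 5.01 in sham, without overlap (adjusted p = 0.377 by limma). Ppp1r36 and Cfap52 were the other members without overlap, against 6.95% of all probes lower in this way. These 4 genes were named after their values were seen.

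Choroid plexus markers were lower in the same comparison, with 0 of 16 called and none of the 16 higher (median −0.78), and sham replicate 3 had a choroid plexus mean of 3.04. Without that array and the naive array of the same kind, 24 of 26 members remained lower, with a median of −0.28 and 0 called. Of 56 other motile cilium genes 3 had a higher mean in TBI, and their median was −0.34. The median of the members ranged from −0.34 to −0.28 over the scalings tried.

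In the hippocampus at 3 months, on the smaller design, 17 of 18 members were lower in TBI, with a median of −0.29 beside −0.14, 4 at an unadjusted p under 0.05 (6.12% of all probes) and 0 called by limma (0.0134% of all probes). Sham replicates 2 and 3 had choroid plexus means of 1.91 and 1.87, and without them, with 2 sham arrays left, 9 of 18 members were higher and the median was 0.01. At 2 weeks 0 of 28 members were called and 0 had an unadjusted p under 0.05 by limma, beside 2.41% of all probes called, with a median of 0.07 beside −0.11. At 24 hr, with 3 TBI and 2 sham arrays, 0 of 24 members were called while 13.6% of all probes were, and 12 were higher and 12 lower. The widest member difference at 24 hr was in Cfap43, named afterwards, at −1.66, 0.04 and −0.83 after TBI and 0.20 and 1.199 in sham (−1.52 ± 0.53, adjusted p = 0.11 by limma). On the smaller design Cfap43 was read from another probe than on the larger design.

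**Figure D5:**
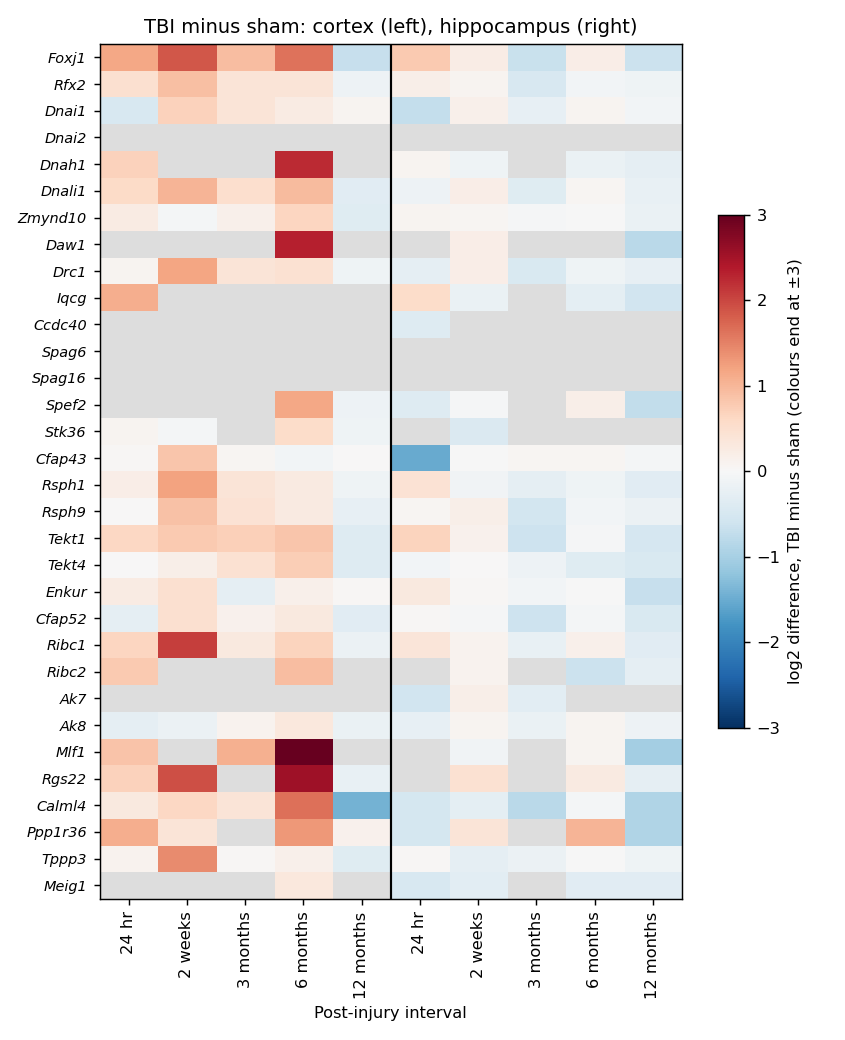
TBI minus sham difference (log2, colour) for each member in each tissue and interval, with grey where a member was not tested; groups hold 4 arrays except hippocampus at 24 hr (3 TBI, 2 sham). Values are mostly positive in cortex at 6 months, which chose the list, and all 26 tested members are negative in hippocampus at 12 months. Hippocampus at 24 hr and 3 months is of the smaller design, where some members were read from other probes.

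Over the 10 TBI comparisons, 9 had no called member, and none of the other motile cilium genes was called in any of the 10. Over the 9 comparisons of sham with naive, 8 had none. These comparisons share their sham arrays with the TBI comparisons, so that they are given side by side and not set against each other.

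Sham and naive differed in 2 called members, both in the cortex at 24 hr, where 19.2% of all probes were called in either direction. Drc1, a scaffold of the nexin link, read 2.21, 2.63, 2.71 and 2.46 in sham and 3.21, 3.20, 3.03 and 2.87 in naive. Zmynd10, needed to assemble dynein arms, read 1.03, 1.44, 1.66 and 1.59 in sham and 2.91, 2.39, 2.12 and 1.84 in naive. Neither gene overlapped between the groups. Drc1 fell by 0.58 ± 0.15 (adjusted p = 0.0201 by limma) and Zmynd10 fell by 0.89 ± 0.24 (adjusted p = 0.0258 by limma), and 0 members were called with any of the other scalings or without naive replicate 2. Leaving out sham replicate 1, 2 or 4 or naive replicate 1 left 1 called member. The share called, 2 of 20 members, was below that of all probes, and the members' median of −0.24 was close to that of all probes, −0.20.

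In the other sham comparisons of the cortex no member passed. At 2 weeks 0 of 22 members were called and 0 had an unadjusted p under 0.05 by limma (0% of all probes called), and 1 was called without sham replicate 3. At 3 months 0 of 16 were called (0.409%), with 6 lower at an unadjusted p under 0.05 (9.07% of all probes in either direction) and a median of −0.45 beside −0.11. Calml4 read 4.97, 4.90, 4.71 and 0.36 in naive and 3.55, 0.42, 1.38 and −0.66 in sham at 3 months, and the 3 high naive arrays were those with high choroid plexus means. Without naive replicate 4, the low array, 3 members were called. Without the 3 high naive arrays the naive group was replicate 4 alone, whose members' mean of −0.65 stood apart from the others, and against that 1 array the members' median was 0.14, with 10 of 17 higher in sham and 0 called by limma, which takes its spread from the other groups. At 6 months 0 of 17 were called by limma (0% of all probes) and 1 had an unadjusted p under 0.05 (6.76% of all probes). At 12 months 0 of 21 were called (4.35%), with 4 at an unadjusted p under 0.05 (18.1%).

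In the hippocampus, sham and naive did not differ in any called member, although many probes were called at some intervals. At 2 weeks 0 of 26 members were called by limma (8.97% of all probes), with 4 at an unadjusted p under 0.05 (25.7% of all probes). At 3 months there were 0 of 21, with 0 at an unadjusted p under 0.05 by limma (0%), and the median was 0.13. Without sham replicates 2 and 3, which left 2 sham arrays, the median at 3 months was −0.37 and 0 were called by limma. At 6 months 0 of 23 (3.54%) and at 12 months 0 of 26 (3.11%) were called by limma, while an unadjusted p under 0.05 was reached by 2 members at 6 months (15.8% of all probes) and by 3 at 12 months (21.6%). The median at 12 months was −0.19, and −0.14 without replicate 3 of both groups. Drc1, named after its values were seen, had the smallest p at 2 weeks, lower in sham by −0.44 ± 0.13 without overlap (adjusted p = 0.0541 by limma). At 2 weeks 1 member was called without sham replicate 1 or naive replicate 4, and at 6 months 1 without sham replicate 3.

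Within groups the members varied from array to array, and many did so together. Over 325 pairs of 26 members, the median correlation of deviations from the group mean was 0.38 in cortex (60 arrays) and 0.42 in hippocampus (36 arrays). Arrays share slides and the scaling, and the values are given as a description. With Foxj1 the cortex correlation was 0.84 for Tekt1, 0.81 for Dnali1, an inner arm light intermediate chain, and 0.71 for Zmynd10, and it was near 0 for Ribc2 (0.05), Stk36 (0.04) and Ppp1r36 (0.06). In the hippocampus Dnali1 reached 0.89 and Mlf1 0.87, while Ribc2 was at −0.41. Ppp1r36 thus separated TBI from sham in the cortex at 6 months without following Foxj1 from array to array.

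The members' mean correlated with the mean of the other motile cilium genes at 0.93 in cortex and 0.97 in hippocampus, with primary cilium genes at 0.45 and 0.42, and with choroid plexus markers at 0.51 and 0.50. Without the 2 arrays farthest from the median the correlation with choroid plexus markers was 0.33 in cortex and 0.49 in hippocampus. Calml4 itself correlated at 0.73 in cortex with the mean of 19 choroid plexus markers.

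Among genes outside the list, Dynlrb2, a dynein light chain, followed the members' mean most closely in both tissues, at 0.96 in cortex and 0.93 in hippocampus. In cortex it was followed by Ropn1l (0.87), Ccdc190 (0.86), Cyb5r2, Cfap126, Rsph10b, Lrrc46, Lrrc51, Gal (0.82), Hcrt (0.82), Ak9 and T2. In hippocampus the order was Cfap126 (0.90), Ropn1l (0.87), Lrrc46, Kif9, Pih1d2, Cfap100, Ccdc190, Spag8, Erich2, Spaca9 and Krt18. Of the 12 genes, 6 in cortex and 7 in hippocampus stood in the list of other motile cilium genes. Gal and Hcrt, which encode the neuropeptides galanin and orexin, stood in none of the lists.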

How the data were processed

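RNA from rat hippocampus and cortex was measured on 113 1-colour Agilent arrays of 2 designs, with 30367 probes on 17 arrays (hippocampus at 24 hr and 3 months) and 45598 on 96. The authors hybridised labelled cRNA, scanned the arrays and extracted spot intensities with Agilent Feature Extraction, and the deposited scanner files hold processed, median and background intensity. The authors scaled the signals to each array's median in GeneSpring. The deposited value table holds linear intensity divided by 1 constant per array. On the log2 scale at least 84.1% of its values well above background lay, on any array, within 0.05 of the deposited processed signal so scaled, and it was used as an alternative.

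Control spots and outlier flags were left out, spots of a probe were averaged, and log2 processed signal was set relative to each array's median. Probes were named through the RefSeq transcripts of a gene table (46.3% of probes on the larger design, 61.4% on the smaller). Of the 31 members named on both designs, 25 were read from the same probe. A probe was tested when all arrays of 1 group of the comparison, or of both, showed it well above background. limma 3.58.1 in R 4.3.3 (lmFit and eBayes, Benjamini-Hochberg over all probes tested) was fitted per tissue and interval over all its groups, and between tissues over naive arrays. The analysis was tested on simulated data made from the cortex at 12 months (25221 probes), where 94% or more of changes of 1.5 log2 were recovered. The changes were put only into probes well above background on every cortex array at 12 months. Recovery for dim probes or at other intervals was not measured. An array holds no read depth, and its precision is limited by the number of arrays. The replicates are separate rats according to the study's methods. Figures were drawn with matplotlib 3.10.9.

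The members and the gene lists were chosen with earlier results of these data known. Values per array are given for Foxj1, for the 8 largest differences in the cortex at 6 months among members well above background in all arrays of 1 group, and for up to 3 called members with the smallest p (4 for TBI against sham) elsewhere. Other named members are said to be named after their values were seen. The genes most like the members were the 12 with the highest correlation of deviations from group means. Alternatives were the 75th percentile, quantile and authors' scalings, normexp (offset 50, on median spot signals, since mean signals were not among the columns used), other filters, the mean of a gene's probes, fewer groups, a replicate block and leaving out arrays. In 4 of 22 comparisons (TBI against sham in cortex at 12 months, sham against naive in hippocampus at 3 months, and the tissues at 2 weeks and 12 months) every pair of same-numbered arrays correlated over 0.1, and the labels do not tie the numbers to animals or days.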

Additional observations from a re-analysis of the deposited data

Results flagged for a closer look

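In 7 of 94 groups looked at (7.45%), 1 array lay far from the other 3, by a criterion that chance meets in about 1 in 20 groups. The members' mean was −0.65 on cortex naive 3 months replicate 4, where the nearest array was at 0.33, −1.10 on cortex sham 24 hr replicate 1 (nearest −0.51), and −0.18 on cortex sham 3 months replicate 3 (nearest −0.65). Foxj1 was −1.45 on cortex naive 3 months replicate 4 (nearest 3.83), 1.23 on cortex TBI 6 months replicate 2 (nearest 3.54) and 5.24 on hippocampus naive 12 months replicate 3 (nearest 4.07). Tekt4 was 2.50 on that same hippocampus array (nearest 1.93).

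Ppp1r36 moved opposite ways between comparisons, with no overlap of the arrays in either. TBI minus sham was 1.08 in cortex and −0.52 in hippocampus at 24 hr. In the hippocampus it was 1.02 at 6 months against −0.91 at 12 months and −0.52 at 24 hr. These differences between comparisons were not tested. In the hippocampus at 24 hr, with 3 TBI and 2 sham arrays, 27.4% of all probes were lower without overlap. The shares on the same side as Ppp1r36 were 11% in cortex at 24 hr, and 7.54% and 6.95% in hippocampus at 6 and 12 months.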

How the results depend on the processing

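No comparison with called members reversed. Of 22 comparisons 17 had 0 called members, so they held no call that could reverse, and 286 of 310 alternatives for those also gave 0. In some of these 17 the members' median changed sign with the scaling, most widely in cortex at 2 weeks. There it ran from −0.52 to 0.82 for TBI against sham and from −0.35 to 0.55 for sham against naive. Called TBI members in hippocampus at 24 hr numbered 2 with normexp; in cortex at 24 hr 5 with normexp and 1 with no filter (0 to 1 leaving out single arrays); in cortex at 2 weeks 2 with no filter and 1 without the 2 arrays that stand apart (0 to 1). In cortex at 6 months they numbered 1 with no filter, 0 with the filter in both groups, 2 with only the 2 groups, 2 with the replicate block and 10 without the array high in choroid plexus markers (1 to 10 leaving out single arrays); these arrays chose the list, and nothing is read from these counts. For sham against naive, hippocampus at 2 weeks gave 2 with the 75th percentile, quantile and authors' scalings, 1 with normexp, 1 with the filter in both groups and 2 with the replicate block (0 to 1); hippocampus at 6 months gave 2 with each of the 3 scalings (0 to 1), and at 12 months 2 with no filter. Cortex at 24 hr gave 0 with the 75th percentile, quantile and authors' scalings and with no filter (0 to 2), at 2 weeks 0 to 1 and at 3 months 0 to 3 leaving out single arrays, and at 12 months 1 with normexp and 1 with only the 2 groups. Between naive tissues at 2 weeks 1 was called with no filter, and leaving out single arrays gave 2 to 11, 9 to 15 and 14 to 18 at the 3 intervals. The cause of these moves was not tested, for normexp, which lifts dim signals, as for the others. The replicate block gave 6, 11 and 18 members between tissues and moved no other count by over 1.5 times. A slide term could not be fitted, because every group lies on 1 slide; where groups share a slide, the value is already a within-slide one. Settings without the outlying 2-week arrays or the arrays high in choroid plexus markers, and the robust prior, were chosen after seeing the data. Dim probes, near background in sham cortex, limit the size of the differences of Mlf1, Daw1, Spef2, Rgs22, Dnah1 and Ppp1r36.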
